A study of Mus musculus with 8 samples.

Results

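The S100 calcium binding proteins were followed as 10 genes of a table of 24421, chosen by symbol: S100a1, S100a3, S100a4, S100a6, S100a8, S100a9, S100a10, S100a11, S100a14 and S100b. All 10 were in the table and all 10 passed the filter on low values, each with a group mean of at least 1 in both populations. They were measured by RNA sequencing in cells sorted from the back skin of 4 C57BL/6J mice that carried the ROSA mTmG reporter with Tyr:CreERT2. The reporter makes membrane tdTomato in a cell until Cre acts there and membrane EGFP from then on, and this Cre is driven by sequence of the tyrosinase gene, used in pigment cells, and works only with tamoxifen. EGFP+ cells are therefore named melanocytes in the labels and tdTomato+ cells the remaining skin cells, a mixture whose makeup the sort did not fix. The groups, with 2 libraries each, were EGFP+ cells of 2 mice given UVB (UV EGFP+), EGFP+ cells of 2 mock treated mice (no UV EGFP+), tdTomato+ cells of the UVB mice (UV tdTomato+) and tdTomato+ cells of the mock mice (no UV tdTomato+). Every mouse had tamoxifen for 10 days from postnatal day 21, was depilated on day 50 and was taken on day 54, and UVB was given at 150 mJ/cm2 for 3 days. Mice 3 and 4 are UV replicates 1 and 2, mice 1 and 2 are no UV replicates 1 and 2, and each mouse gave 1 library of each population. The series concerns MITF, the melanocyte transcription factor, and compares these populations and treatments. Its values are per gene.

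S100 proteins are small proteins with a pair of EF-hand loops, usually found as dimers. When calcium binds, most of them open a surface that grips a partner protein, such as an annexin, a myosin or a kinase, and several also act outside the cell on receptors such as RAGE and TLR4. In skin, S100B is a classical marker of melanocytes, melanoma and Schwann cells. Many of the S100A genes lie in the epidermal differentiation complex and are known from keratinocytes, while S100A8 and S100A9 together form calprotectin, which is abundant in neutrophils and is made by stressed keratinocytes.

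The libraries held 11186363 to 16711981 reads. UV EGFP+ replicate 2 had reads for 11186 genes, and the other libraries for 14503 to 17076. The S100 genes took 0.127 to 0.214% of them in EGFP+ libraries and 0.597 to 0.663% in tdTomato+ libraries. Summed over 6 melanocyte markers (Tyr, Dct, Pmel, Mlana, Sox10, Kit), EGFP+ libraries held 384313 to 490656 normalized reads, against 2072 to 30917 in tdTomato+ libraries. Within tdTomato+ cells that sum was 16834 to 30917 with UVB and 2072 to 4543 without. There 4 of the 6 markers passed the test as higher with UVB, where 0.349% of all tested genes did. Summed over 6 basal keratinocyte markers (Krt5, Krt14, Krt15, Itga6, Trp63, Col17a1), EGFP+ libraries held 701 to 1013 normalized reads, against 207351 to 275716 in tdTomato+ libraries. The sorted populations thus carried the markers their labels call for. Mouse 1 alone had Xist reads (477 in EGFP+ and 1103 in tdTomato+ cells, against at most 4 in any library of the other mice), and had at most 9 Y-linked reads, against at least 2253 in each library of the others, so the UV and no UV arms were not matched for sex. In bulk RNA, fewer cells of a type and less RNA per cell cannot be told apart.

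Of the 10 S100 genes, 2 were higher in EGFP+ than in tdTomato+ cells over all mice (S100b and S100a1), 7 were lower (S100a14, S100a9, S100a3, S100a11, S100a6, S100a4 and S100a10), and S100a8 did not pass the test. A gene was called at a limma adjusted p (Benjamini-Hochberg over the 18070 genes tested) under 0.05. Of all tested genes, 28.9% were called, 9.66% as higher and 19.2% as lower. The median log2 difference of the 10 genes, EGFP+ minus tdTomato+, was -3.26, against -0.33 over all tested genes. Another scaling moves that zero point: the median of all genes was 0.10 after quantile normalization and -0.10 after rescaling without the 20 most abundant genes. With these the share of calls that were higher, 33.5% here, was 49.3% and 47.8%. None of the 9 called S100 genes changed sign or lost its call under either.

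**Figure D1:**
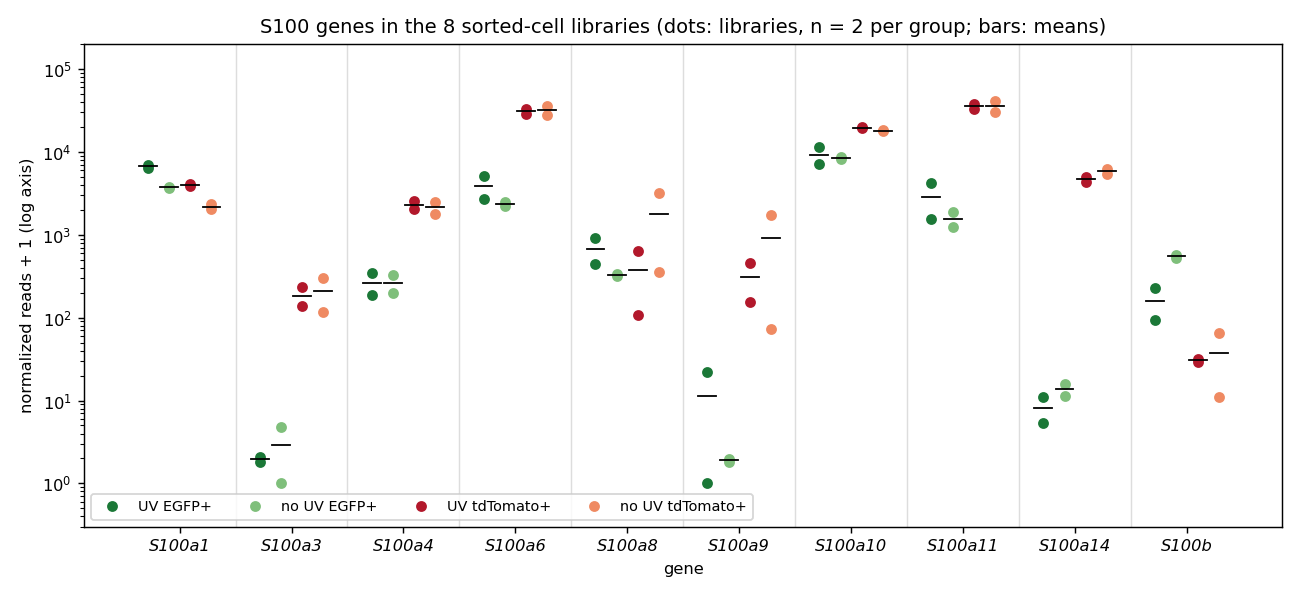
Normalized reads plus 1 on a log axis for the 10 S100 genes, with 1 dot per library and a bar at each group mean (2 libraries per group). S100b and S100a1 sit higher in EGFP+ cells, S100a3, S100a9 and S100a14 lie at a few reads there, and the S100a8 dots of both populations overlap.

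S100b encodes the S100 protein used as a marker of melanocytic cells, and it was the S100 gene with the largest excess in EGFP+ cells. It had 228 and 91.6 normalized reads in UV EGFP+, 529.8 and 570.5 in no UV EGFP+, 28.4 and 30.6 in UV tdTomato+ and 63.6 and 9.99 in no UV tdTomato+ libraries. Every EGFP+ library was above every tdTomato+ library. On the log2 scale the difference, EGFP+ minus tdTomato+, was 3.31 ± 0.62 (moderated SE, limma adjusted p = 0.00432), and it was positive in all 4 mice, from 1.55 in mouse 4 to 5.70 in mouse 2. The call was lost without no UV EGFP+ replicate 1 (adjusted p = 0.0516).

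S100b lies alone on chromosome 10 (mm10, 76253836 to 76261319, plus strand), away from the other 9. Its span, introns included, overlaps that of Dip2a on the opposite strand by 1731 bases, and the library kit does not mark strand. Dip2a averaged 43.2 normalized reads in EGFP+ cells and 53.0 in tdTomato+ cells. The part of Dip2a reads in the S100b values was not tested. S100b is also a Schwann cell gene. Of the 4 Schwann cell markers reported here, Mbp, Mal and Ngfr were lower in EGFP+ cells and Prx did not pass the test. Mbp, Mal and Ngfr were at 0 in both UV EGFP+ libraries, where S100b was at 228 and 91.6. In no UV EGFP+ libraries, where S100b was at 529.8 and 570.5, Mbp had 74.9 and 31.4 normalized reads, Ngfr 16.6 and 11.4 and Mal 10.8 and 0.951. These 4 are a part of the list, so they do not describe Schwann cell genes as a whole, and the part of Schwann cells in the S100b values was not tested.

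The sequence before the S100b start is printed because it belongs to the S100 gene that marks the EGFP+ cells. It is from RefSeq on GRCm38.p6 (the mm10 assembly), chr10:76253586-76253835, plus strand, 5′ to 3′ and ending 1 base before the start. Capitals in this and the later sequences mark matches, on either strand, to 5 short motifs: the E-boxes CATGTG and CACGTG, which MITF-family proteins can bind, the AP-1 motif TGANTCA, the C/EBP motif TTGCNNAA and TATAAA. Promoters of 8 of the 10 genes were in the RefSeq table. Among 27025 windows of 250 bases, 12.2% hold CATGTG, 6.05% CACGTG, 6.87% TGANTCA, 9.55% TTGCNNAA and 12.97% TATAAA. The S100b window holds none of the 5, and neither do those of S100a1 and S100a6. This says only that these letters are not in this window.
S100b upstream sequence: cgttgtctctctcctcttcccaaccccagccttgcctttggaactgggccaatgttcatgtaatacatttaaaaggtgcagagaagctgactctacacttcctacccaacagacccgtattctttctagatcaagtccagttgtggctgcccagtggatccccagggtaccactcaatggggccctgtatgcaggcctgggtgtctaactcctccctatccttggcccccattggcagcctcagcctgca

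S100a1, known as a regulator of calcium handling in heart and muscle, was the other gene higher in EGFP+ cells, by a smaller margin. It had 6958 and 6426 normalized reads in UV EGFP+, 3777 and 3665 in no UV EGFP+, 4127 and 3914 in UV tdTomato+ and 2052 and 2328 in no UV tdTomato+ libraries. The populations overlapped when the UV arms were pooled and did not overlap within either arm. S100a1 differed by 0.75 ± 0.11 on the log2 scale (adjusted p = 0.00133), and the difference lay between 0.65 and 0.88 in each of the 4 mice. After quantile normalization it was 1.00, where the median of all genes was 0.10. In the authors' deposited table, whose fit has EGFP+ against tdTomato+ over all 8 libraries, S100a1 has a log2 fold change of 0.74 and an adjusted p of 0.0916.

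S100a1 and S100a13 stand head to head on chromosome 3 and share 98 bases on opposite strands in RefSeq. S100a13, which helps to release growth factors such as FGF1 in cultured cells, averaged 1381 ± 439 normalized reads in EGFP+ cells and 994 ± 165 in tdTomato+ cells (SD, n = 4 each). Its log2 difference of 0.44 ± 0.19 did not pass (adjusted p = 0.129). Reads from the shared bases cannot be assigned to either gene without strand.

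S100a14, an S100 gene of epithelia, had the largest deficit in EGFP+ cells. It had 10.1 and 4.31 normalized reads in UV EGFP+, 14.97 and 10.5 in no UV EGFP+, 4989 and 4378 in UV tdTomato+ and 5384 and 6242 in no UV tdTomato+ libraries. The log2 difference was -9.00 ± 0.32 (adjusted p = 1.03e-06). In reads, 45 were counted over the 4 EGFP+ libraries and 20044 over the 4 tdTomato+ libraries. The EGFP+ libraries stood at 0.0821 to 0.285% of the tdTomato+ mean for S100a14, and at 0.162 to 0.272% for Krt14, the basal keratinocyte keratin. The part of tdTomato+ material in EGFP+ libraries in the S100a14 reads was not tested.

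S100a3 encodes a cysteine-rich, zinc-binding protein known from the hair cuticle. It had 0.839 and 1.08 normalized reads in UV EGFP+, 0 and 3.80 in no UV EGFP+, 231 and 136 in UV tdTomato+ and 115 and 297 in no UV tdTomato+ libraries. The EGFP+ libraries held 6 reads in all and the tdTomato+ libraries 725, a ratio of 136 for tdTomato+ over EGFP+ normalized reads (95% interval 62.1 to 371, counting error only). On the log2 scale S100a3 differed by -6.46 ± 0.80 (adjusted p = 0.000531). Its span on chromosome 3 contains S100a2, which averaged 0.419 normalized reads in EGFP+ cells and 3.76 in tdTomato+ cells. Hair shaft and cuticle markers (10 genes) summed to 0 to 28.3 normalized reads in EGFP+ libraries and 381 to 838 in tdTomato+ libraries. Of the 6 tested, 3 were lower in EGFP+ cells (Krt32, Hoxc13 and Msx2), where 19.2% of all tested genes were lower. Krt32 and Hoxc13 passed the filter on low values only through tdTomato+ cells, so their calls and test values are given as a description. Most of the tdTomato+ sum was Krt32, Hoxc13 and Msx2, and the rest of the list was at no more than 6.41 in any library. Of the hair cuticle keratins, Krt32 was at no more than 1.68 normalized reads in EGFP+ libraries and at 97.4 to 448 in tdTomato+ libraries (log2 difference -7.10 ± 0.72, adjusted p = 0.000187), while Krt82 was at no more than 0.927 in any library.

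S100a11, a partner of annexin A1 known from keratinocyte growth control, was the most abundant S100 transcript per kb of exon in every tdTomato+ library, while in normalized reads S100a6 exceeded it in UV tdTomato+ replicate 2 and no UV tdTomato+ replicate 2. It had 4232 and 1533 normalized reads in UV EGFP+, 1871 and 1249 in no UV EGFP+, 38040.5 and 32992 in UV tdTomato+ and 40666.5 and 30236 in no UV tdTomato+ libraries. The log2 difference was -4.16 ± 0.30 (adjusted p = 2.87e-05). Each EGFP+ library lay below each tdTomato+ library, with UV EGFP+ replicate 1 the highest of the EGFP+ libraries. A near-identical pseudogene could take or give reads, and the treatment of such reads in the authors' counting is not stated in the labels. The S100a11 upstream window (chr3:93520246-93520495, plus strand) is printed because it holds more matches than the other windows shown: CACGTG 223 bases before the start and TGANTCA 136 and 38 bases before it.
S100a11 upstream sequence: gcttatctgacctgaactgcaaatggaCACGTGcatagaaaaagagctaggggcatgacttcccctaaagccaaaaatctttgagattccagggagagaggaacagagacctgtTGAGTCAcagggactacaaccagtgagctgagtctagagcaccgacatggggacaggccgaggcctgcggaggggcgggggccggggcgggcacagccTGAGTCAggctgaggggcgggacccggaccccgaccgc

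S100a6 (calcyclin) and S100a4 (metastasin, a partner of non-muscle myosin that is widely used as a fibroblast and motility gene) were lower in EGFP+ cells by similar amounts. S100a6 had 5047 and 2690.1 normalized reads in UV EGFP+, 2462 and 2195 in no UV EGFP+, 28556 and 33058 in UV tdTomato+ and 27778 and 36131 in no UV tdTomato+ libraries. S100a4 had 341 and 185 normalized reads in UV EGFP+, 330.2 and 195 in no UV EGFP+, 2043 and 2526 in UV tdTomato+ and 2485 and 1788 in no UV tdTomato+ libraries. Neither gene overlapped between the populations. The log2 difference was -3.41 ± 0.20 for S100a6 (adjusted p = 9.44e-06) and -3.11 ± 0.27 for S100a4 (adjusted p = 8.55e-05). Their profiles over the 8 libraries were the closest of any pair among the 10 genes, with a root mean square difference of 0.39 on the centred log2 scale.

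Of the called genes that were lower, S100a10 had the smallest deficit. It encodes p11, an S100 protein that does not need calcium and that pairs with annexin A2 at the cell membrane. S100a10 had 11313 and 7158 normalized reads in UV EGFP+, 8694 and 8159 in no UV EGFP+, 19411 and 19748.5 in UV tdTomato+ and 18254 and 17791 in no UV tdTomato+ libraries. The populations did not overlap, and the log2 difference was -1.11 ± 0.14 (adjusted p = 0.000682). It was -0.71 after quantile normalization, and the call was lost without mouse 1 (adjusted p = 0.0814). Anxa2 differed by about the same amount (-1.07 ± 0.15, adjusted p = 0.00118). There were 0.403, 0.390, 0.523 and 0.393 normalized reads of S100a10 for each of Anxa2 in EGFP+ libraries and 0.400, 0.468, 0.410 and 0.474 in tdTomato+ libraries, so the ratio of these genes overlapped between populations.

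S100a8 and S100a9, the subunits of calprotectin, parted in EGFP+ cells. S100a8 had 906 and 447 normalized reads in UV EGFP+, 331 and 319 in no UV EGFP+, 641 and 106 in UV tdTomato+ and 3191 and 354 in no UV tdTomato+ libraries. S100a9 had 20.97 and 0 normalized reads in UV EGFP+, 0.832 and 0.951 in no UV EGFP+, 456 and 152 in UV tdTomato+ and 1738 and 72.8 in no UV tdTomato+ libraries. S100a8 overlapped between the populations and S100a9 did not. The log2 difference was -0.21 ± 0.75 for S100a8 (adjusted p = 0.855) and -6.69 ± 1.27 for S100a9 (adjusted p = 0.00473).

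In EGFP+ cells, reads of S100a9 per 100 reads of S100a8 were 2.31, 0, 0.251 and 0.298, in the order UV replicates 1 and 2 and no UV replicates 1 and 2. In tdTomato+ cells they were 71.1, 144, 54.5 and 20.6 in that order. As a share of the reads of both genes, S100a9 took 2.26% in UV EGFP+ replicate 1 (exact binomial 95% interval 1.47 to 3.32%) and 0 of 415 S100a8 and S100a9 reads in UV EGFP+ replicate 2 (upper bound 0.885%). The lowest tdTomato+ share was 17.1% (12.97 to 21.8%), in no UV tdTomato+ replicate 2. These intervals cover counting error only. The S100a9 share was thus lower in each EGFP+ library than in each tdTomato+ library by more than counting error. S100a8 reads in EGFP+ cells thus came with almost no S100a9 reads. The part of tdTomato+ material in these S100a8 reads was not tested.

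**Figure D2:**
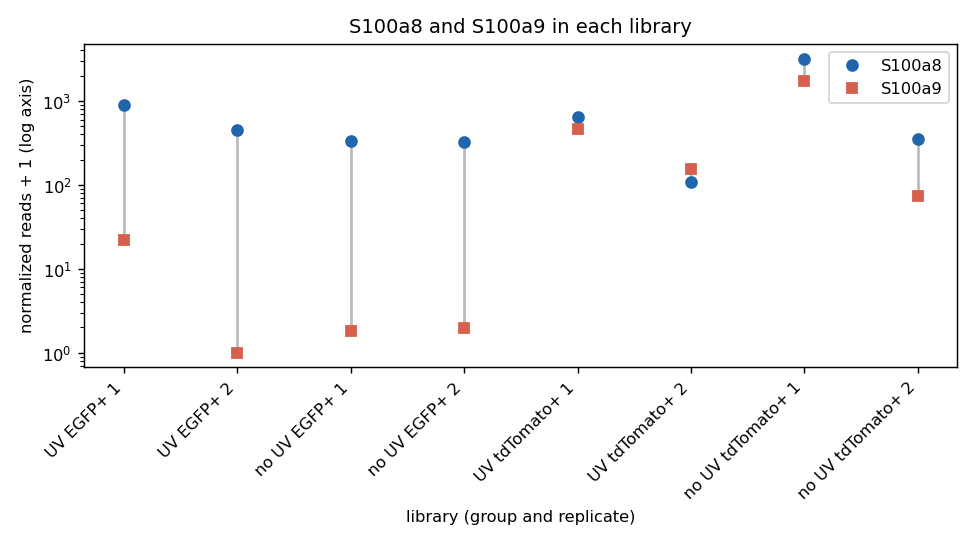
S100a8 (circles) and S100a9 (squares) in each of the 8 libraries, as normalized reads plus 1 on a log axis, with a line joining both genes of a library. The gap is wide in all 4 EGFP+ libraries and narrow in the tdTomato+ libraries, where UV tdTomato+ replicate 2 has more S100a9 (152) than S100a8 (106).

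The S100a9 call was the least firm of those over all mice: it was lost without either no UV EGFP+ library, without UV tdTomato+ replicate 1, without no UV tdTomato+ replicate 1 and without mouse 1, with adjusted p up to 0.152. The S100a9 mean in no UV tdTomato+ cells came mostly from mouse 1 (1738 in replicate 1 and 72.8 in replicate 2), and so did that of S100a8 (3191 and 354). Of 8 neutrophil markers, 3 of 7 tested were lower in EGFP+ cells (Il1r2, Cxcr2 and Camp), where 19.2% of all tested genes were lower. Il1r2 passed the filter on low values only through tdTomato+ cells, and Camp only through UV tdTomato+ cells, so their calls are given as a description. The summed markers were 94.1 to 188 normalized reads in EGFP+ libraries and 765 to 2958 in tdTomato+ libraries, and no UV tdTomato+ replicate 1 was highest here too. Among the granule and protease genes of the list, Ngp, Ltf and Elane were at no more than 2.85 normalized reads in every library. Camp was at 26.6 and 18.5 in UV tdTomato+ and at 0 in the other 6 libraries, and its call was lost with edgeR (adjusted p = 1) and DESeq2 (adjusted p = 0.376). Mmp8 was at 0 in EGFP+ libraries, at 22.0 and 0 in UV tdTomato+ and at 7.82 and 1.43 in no UV tdTomato+ libraries. Most of the sum was Il1r2 and Cxcr2.

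The upstream windows of both genes are shown because these neighbours differ in EGFP+ cells. S100a8 (chromosome 3, 90669071 to 90670034, plus strand) and S100a9 (90692630 to 90695721, minus strand) are neighbours in the order of the table's S100 genes along the chromosome. The S100a8 window (chr3:90668821-90669070, plus strand) holds CATGTG 130 bases before the start, read on the other strand as CACATG, and TATAAA 30 bases before it. The S100a9 window (chr3:90695722-90695971, minus strand) holds TTGCNNAA 236 bases before the start. A match is a description of the letters and not a bound site.
S100a8 upstream sequence: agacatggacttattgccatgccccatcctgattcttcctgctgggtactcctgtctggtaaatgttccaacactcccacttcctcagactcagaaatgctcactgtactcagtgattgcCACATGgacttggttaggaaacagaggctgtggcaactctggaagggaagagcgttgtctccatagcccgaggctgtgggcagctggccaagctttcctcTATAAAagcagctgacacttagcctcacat
S100a9 upstream sequence: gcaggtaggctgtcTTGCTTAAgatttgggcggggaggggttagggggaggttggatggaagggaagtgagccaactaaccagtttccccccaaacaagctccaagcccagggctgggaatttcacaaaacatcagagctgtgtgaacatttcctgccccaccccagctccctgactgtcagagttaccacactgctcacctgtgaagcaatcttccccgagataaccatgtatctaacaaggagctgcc

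Along the genome, 14 S100 genes of the table lie on chromosome 3, 9 of them among the 10. S100a1 to S100a9 fall within 184.688 kb, and S100a11 and S100a10 follow 2824.78 kb further on. S100a1 was higher in EGFP+ cells, while S100a14, which starts within the same stretch (90526849 to 90528837), had the largest deficit. In order along chromosome 3, S100a1 and S100a13 (0.44, not called) come first, with positive differences. Every later S100 gene of the table there had a negative difference, though not all of these were called. Next to S100a14, S100a16, which is not among the 10, averaged 249 ± 106 normalized reads in EGFP+ cells and 16856 ± 1917 in tdTomato+ cells (SD, n = 4 each), a log2 difference of -6.18 ± 0.18 (adjusted p = 4.87e-07). It was the only called gene of 7 other S100 genes tested. S100a5, S100z, S100a2, S100a7a and S100g were counted with at most 48 reads over 4 libraries of a population.

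**Figure D3:**
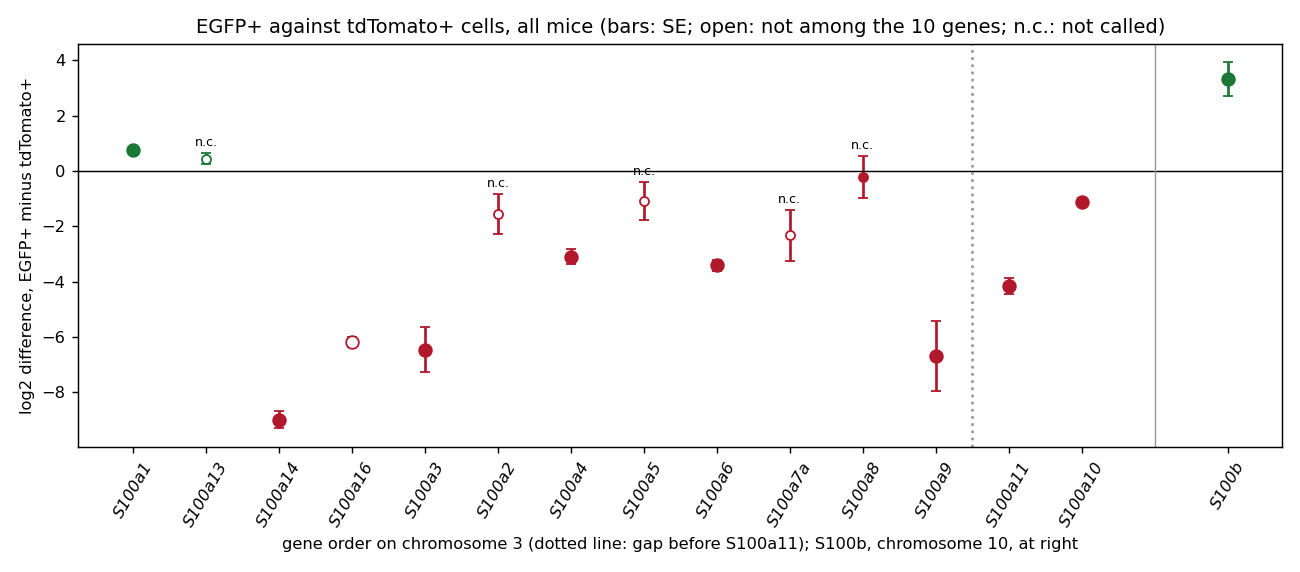
Log2 difference, EGFP+ minus tdTomato+ over all mice, for the S100 genes in their order on chromosome 3 and for S100b on chromosome 10, with bars of 1 moderated SE. Filled points are the 10 genes, open points other S100 genes, and n.c. marks genes not called. S100a1 (0.75) and S100b (3.31) are the called genes above 0, and S100a14 (-9.00) is the lowest.

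Within the UVB mice alone, 7 of the 10 genes were called between EGFP+ and tdTomato+ cells, 1 higher (S100a1) and 6 lower (S100a3, S100a4, S100a6, S100a10, S100a11 and S100a14), where 17.9% of all tested genes were called, 5.03% higher and 12.9% lower. S100a9 had a log2 difference of -5.82 ± 1.80 (adjusted p = 0.0577, and 0.0316 with mouse as a block). S100b had 2.26 ± 0.87 (adjusted p = 0.118) and S100a8 had 1.28 ± 1.06 (adjusted p = 0.465). The count was 4 without either UV tdTomato+ library and 1, S100a14, without mouse 1. Within the mock mice, 9 were called, 2 higher and 7 lower, the same genes as over all mice, where 19.2% of all tested genes were called, 6.67% higher and 12.5% lower. S100a8 had a log2 difference of -1.71 ± 1.06 there (adjusted p = 0.324). The count was 5 without no UV EGFP+ replicate 2 and 2, S100a6 and S100a14, without mouse 1.

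Per kilobase of exon, the 2 populations had different leading S100 transcripts. In EGFP+ cells S100a10 stood first with 11011 ± 2211 normalized reads per kb, followed by S100a1 with 7502 ± 2492, S100a11 with 4347 ± 2670, S100a6 with 3830 ± 1625, S100a8 with 1031 ± 568, S100a4 with 528 ± 169 and S100b with 239 ± 157 (SD, n = 4). S100a9 (10.9 ± 19.5), S100a14 (9.13 ± 4.01) and S100a3 (1.60 ± 1.84) came last, and 25 of the 27 S100a9 reads were in UV EGFP+ replicate 1. S100a9 was not told apart from S100a14 and S100a3 by its spread, while S100a14 was above S100a3 in every EGFP+ library. S100a11 and S100a6 differed by less than their spread, as did S100a8 and S100a4, and in UV EGFP+ replicate 2 S100a1 passed S100a10. In tdTomato+ cells S100a11 stood first with 69440 ± 9258, then S100a6 with 38789 ± 4858 and S100a10 with 23443 ± 1158, each step larger than the spread. S100a14 (4815 ± 717), S100a1 (4474 ± 1537) and S100a4 (4439 ± 716) did not differ beyond their spread over both UV arms. Within the arms, S100a1 was above S100a14 with UVB (5793 ± 217 against 4297 ± 397). Without UVB it was below S100a14 (3156 ± 281 against 5333 ± 556, SD of 2 libraries). S100a8 (2208 ± 2940) and S100a9 (1159 ± 1482) did not differ beyond their spread. S100a3 (218 ± 94.6) and S100b (22.3 ± 15.02) came last.

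**Figure D4:**
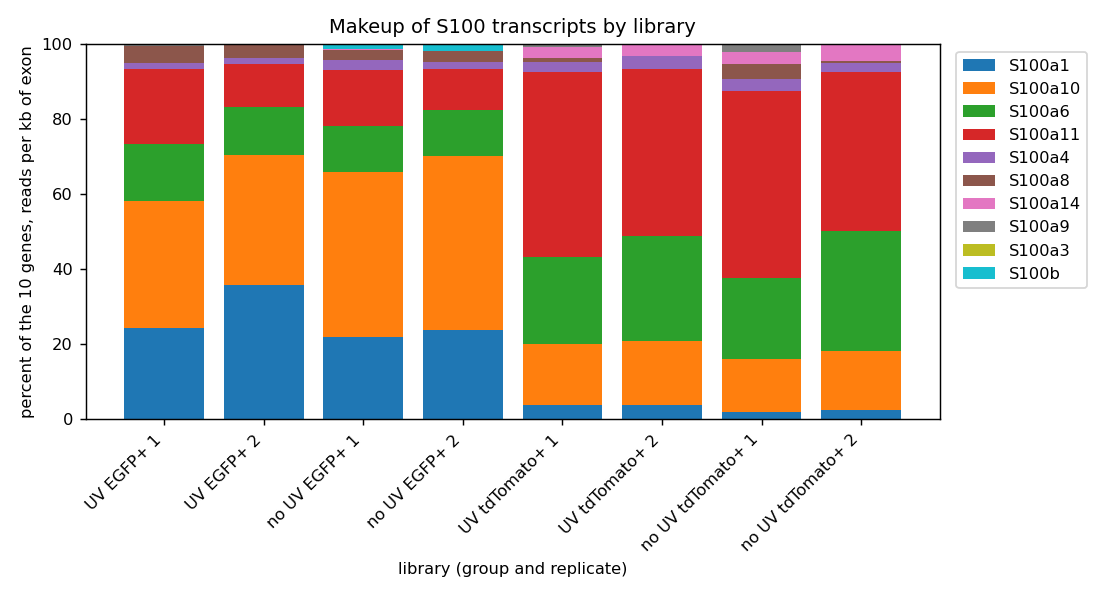
Share of each of the 10 genes in their summed normalized reads per kb of exon, 1 stacked bar per library. S100a10 and S100a1 averaged 39.6 and 26.5% in EGFP+ libraries, where S100a11 averaged 14.4%, and S100a11 and S100a6 averaged 46.5 and 26.2% in tdTomato+ libraries, where S100a1 averaged 3.02%.

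With UVB, no S100 gene was called in EGFP+ cells, and S100a1 came nearest. Its UV EGFP+ values of 6958 and 6426 lay above the no UV EGFP+ values of 3777 and 3665, a log2 difference of 0.85 ± 0.16 (unadjusted p = 0.000554, limma adjusted p = 0.135, 95% interval 0.49 to 1.20). Of all tested genes, 0.0166% were called there, all of them lower (0.0166% lower and 0% higher), and 1875 had an unadjusted p under 0.05, of which S100a1 and S100a6 were 2. On recovered reads edgeR called 0 S100 genes. S100a1 was called by DESeq2 on them (adjusted p = 0.00342) and without UV EGFP+ replicate 1 (adjusted p = 0.0427). That fit, like the others that leave 1 library in a group, takes the spread from the other groups and assumes that the lone library varies like them.

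The same gene came nearest in tdTomato+ cells, where again no S100 gene was called. S100a1 had 4127 and 3914 normalized reads in UV tdTomato+ cells and 2052 and 2328 in no UV tdTomato+ cells, a log2 difference of 0.88 ± 0.16 (unadjusted p = 0.000428, adjusted p = 0.0614, 95% interval 0.52 to 1.24). Here 0.559% of all tested genes were called, 0.349% as higher and 0.21% as lower, and 2429 had an unadjusted p under 0.05, of which S100a1 was the 1 S100 gene. S100a1 was called by edgeR (adjusted p = 0.0499) and DESeq2 (adjusted p = 0.00123) on recovered reads, without no UV tdTomato+ replicate 1 (adjusted p = 0.0194) and without mouse 1 (adjusted p = 0.0499). The change in EGFP+ cells minus that in tdTomato+ cells was -0.03 ± 0.22 (adjusted p = 0.963, 95% interval -0.54 to 0.47). In this comparison of changes no S100 gene was called, where 0.00553% of all tested genes were (0% higher and 0.00553% lower) and 1814 had an unadjusted p under 0.05, with 0 S100 genes among them. edgeR and DESeq2 called 0 S100 genes there as well.

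**Figure D5:**
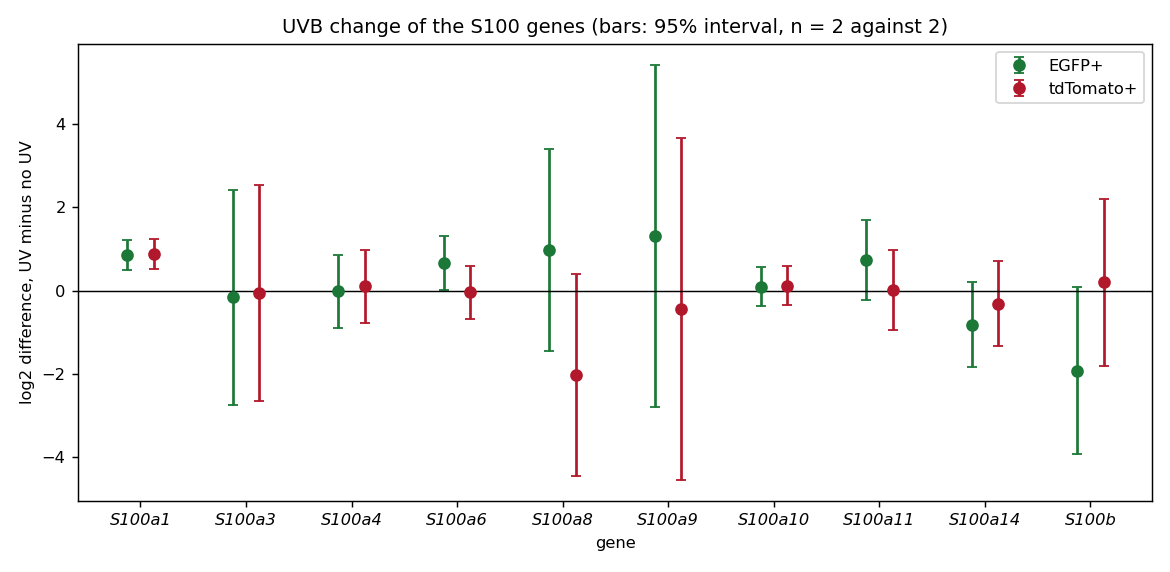
Log2 difference, UV minus no UV, for the 10 S100 genes in EGFP+ and in tdTomato+ cells, with 95% intervals (2 against 2 libraries). The S100a1 intervals lie above 0 in both populations (0.49 to 1.20 and 0.52 to 1.24), and no S100 gene was called in either.

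The upstream window of S100a1 (chr3:90514331-90514580, minus strand) is printed because it belongs to the S100 gene that came nearest to a call with UVB in both populations. It contains no match to the 5 motifs, and 61.6% of its bases are G or C, against a median of 52.0% over all windows.
S100a1 upstream sequence: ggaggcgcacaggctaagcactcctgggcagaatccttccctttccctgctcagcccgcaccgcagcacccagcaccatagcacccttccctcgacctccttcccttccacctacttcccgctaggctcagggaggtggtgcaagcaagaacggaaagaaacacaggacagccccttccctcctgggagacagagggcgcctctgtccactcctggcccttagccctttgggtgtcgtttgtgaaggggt

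The other UVB values in EGFP+ cells were smaller or less even. S100b was lower in both UV EGFP+ libraries (228 and 91.6) than in both no UV EGFP+ libraries (529.8 and 570.5), a log2 difference of -1.92 ± 0.87 (adjusted p = 0.496, 95% interval -3.92 to 0.08). S100a6 was above its no UV EGFP+ values in both UV EGFP+ libraries, with 0.66 ± 0.28 (adjusted p = 0.468), and S100a8 too, with 0.97 ± 1.06 (adjusted p = 0.80). S100a14 was below them, with -0.82 ± 0.45 (adjusted p = 0.565), which after quantile normalization was 0.59. S100a11 overlapped between the arms, with 0.74 ± 0.42 (adjusted p = 0.581). S100a3, S100a4, S100a9 and S100a10 overlapped as well. UV EGFP+ replicate 1 was the higher of its pair for 9 of the 10 genes, all but S100a3. Its partner, UV EGFP+ replicate 2, had the fewest genes with reads of any library (11186, against 14503 in replicate 1).

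In tdTomato+ cells, S100a8 had 641 and 106 normalized reads with UVB and 3191 and 354 without, which overlap, and a log2 difference of -2.02 ± 1.06 (adjusted p = 0.474). S100a14 was lower with UVB in both libraries (4989 and 4378, against 5384 and 6242), by -0.31 ± 0.45 (adjusted p = 0.81). S100a10 was slightly higher in both (19411 and 19748.5, against 18254 and 17791). Apart from S100a1, given above, the remaining genes overlapped between the arms. Dct, the melanocyte enzyme, stood in UV tdTomato+ libraries at 3.66 and 6.11% of the EGFP+ mean and in no UV tdTomato+ libraries at 0.981 and 0.456%, and S100b at 8.001 and 8.62% and at 17.9 and 2.81%. The part of melanocyte material in tdTomato+ values of S100b and S100a1 was not tested. For S100a8 the UVB change in EGFP+ cells exceeded that in tdTomato+ cells by 2.99 ± 1.498 (adjusted p = 0.549), for S100a6 by 0.71 ± 0.40 (adjusted p = 0.594), and for S100b it was lower by a log2 difference of -2.11 ± 1.24 (adjusted p = 0.608).

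Partners of the S100 proteins were read from lists of annexins, receptors, targets and modifying enzymes. Of 11 annexins tested, 4 were higher and 4 lower in EGFP+ cells over all mice. Beside the counts of this and the next lists, 9.66% of all tested genes were called higher and 19.2% lower. Anxa11, a partner of S100A6 in binding studies, was higher by 3.24 ± 0.22 on the log2 scale (adjusted p = 2.11e-05), and Anxa6, which binds S100A1 and S100B, by 2.04 ± 0.15 (adjusted p = 2.77e-05). Anxa8 (-8.68 ± 0.41, adjusted p = 3.12e-06) and Anxa3 (-6.78 ± 0.75, adjusted p = 0.00028) were lower. Anxa1, the partner of S100A11, averaged 37920 ± 5888 normalized reads in EGFP+ cells and 29504 ± 2937 in tdTomato+ cells (SD, n = 4 each; log2 difference 0.35 ± 0.11, adjusted p = 0.049), so it went the other way from S100a11. Anxa1 is outside the naming rule and is given as that partner.

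Of 9 receptor genes for extracellular S100 proteins, 1 was higher and 3 lower in EGFP+ cells. Tlr4, a receptor for calprotectin, averaged 132 ± 60.1 normalized reads in EGFP+ cells and 22.3 ± 6.46 in tdTomato+ cells (SD, n = 4 each; log2 difference 2.44 ± 0.58, adjusted p = 0.0133). Emb (-5.58 ± 1.11, adjusted p = 0.00595), Cd36 (-6.09 ± 1.44, adjusted p = 0.0134) and Bsg (-0.52 ± 0.11, adjusted p = 0.00661) were lower. Ager, which encodes RAGE, was at no more than 9.16 normalized reads in any library and at 0 in 4 of 8. Of 16 intracellular targets, 3 were higher, Plat, Ppfibp1 and Stk38l, and 2 lower, Cacybp and Trpv6. The share of targets called was near the 28.9% of all tested genes called in either direction. Plat encodes tissue plasminogen activator, which the S100A10 complex binds at the cell surface, and averaged 10034 ± 4501 normalized reads in EGFP+ cells and 493 ± 231 in tdTomato+ cells (4.36 ± 0.21, adjusted p = 3.55e-06). Ppfibp1, a liprin that binds S100A4, was higher by 1.86 ± 0.16 (adjusted p = 8.54e-05). Cacybp, the calcyclin binding protein, was lower by a log2 difference of -0.80 ± 0.18 (adjusted p = 0.0102), the same direction as S100a6.

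Of 7 deiminase and transglutaminase genes tested, Padi2 was higher in EGFP+ cells (4.75 ± 0.45, adjusted p = 0.000126), and Tgm5, Tgm1 and Tgm3 were lower. Tgm3 passed the filter on low values only through no UV tdTomato+ cells, so its call is given as a description. Padi3, whose enzyme modifies S100A3 in the hair cuticle, had at most 0.951 normalized reads in any library and was not tested. Of 5 genes tested that fuse an S100 domain to repeats, Tchh (-5.72 ± 0.77, adjusted p = 0.000816) and Crnn (adjusted p = 0.00903) were lower. Crnn had no reads in EGFP+ cells or in no UV tdTomato+ cells, and 26.6 and 22.3 normalized reads in UV tdTomato+ cells. In mock mice the populations thus did not differ in Crnn, and its call over all mice is given as a description. Of 9 other EF-hand genes tested, Calm3 was higher and Calml3, Capn1 and Calm2 lower. With UVB, limma called 0 genes of these partner and family lists in EGFP+ cells and Crnn in tdTomato+ cells. Crnn passed the filter on low values only through UV tdTomato+ cells and was at 0 in the other 6 libraries, so that call is given as a description as well. No called gene of these lists changed sign over all mice under the other scalings, edgeR or DESeq2. Calls were lost for Bsg and Calm2 with quantile normalization and with rescaling, for Trpv6 with quantile normalization, for Tgm3 with quantile normalization, edgeR and DESeq2, for Crnn with edgeR and DESeq2, and for Anxa1 with DESeq2.

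The genes with the profile most like each S100 gene were taken over 8 libraries from 12387 genes with a mean of at least 10, by the root mean square difference of centred log2 values. For S100b these were Megf10 (0.50), Tspan7 (0.61) and Gpm6b (0.63). For S100a14 they were Serpinb5 (0.28), Pkp1 (0.31) and Cxadr (0.39). S100a11 was nearest to Pycard (0.33), Hspb1 (0.41) and Naprt (0.41), and S100a6 to Map1lc3a (0.30), Stard5 (0.31) and Hist1h4d (0.37). S100a4 was nearest to Fam132a (0.22), S100a10 to Coq6 (0.09), S100a1 to Papd4 (0.15) and S100a3 to Fam110c (0.43). S100a8 and S100a9 had no gene as near: S100a8 was nearest to Ablim1 (0.78) and S100a9 to Ephx3 (1.04) and Lcn2 (1.09), which encodes a neutrophil and keratinocyte lipocalin.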

How the data were processed

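The labels' protocols describe 8 poly(A)-selected libraries of sorted cells, made with a kit that does not mark strand. The submitters' processing notes name mm10 and, as tools, DESeq2 1.14.1, Cufflinks 2.2.1, TopHat2 2.0.12 and FastQC. No source here states how reads were counted per gene. The signal values deposited by the authors are normalized reads, that is, whole reads over a size factor for each library: all 195368 values came within 0.01 of a whole read (100%). The authors' log2 fold changes and adjusted p-values for EGFP+ over tdTomato+ cells were used only where named, and their deposited score column was not used.

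Tests used limma 3.58.1 (R 4.3.3) with log2(normalized reads + 1), 1 mean for each of the 4 groups, a single fit and a trended empirical Bayes moderation (4 residual degrees of freedom, median 8.4 after moderation). A gene was tested if a group averaged at least 1, which gave 18070, with Benjamini-Hochberg adjustment and a threshold of 0.05. Fold changes are on this log2 scale, which understates those of low genes. P-values rest on 2 mice per group. An exact permutation test, whose smallest p is 0.333 for 2 against 2 and 0.0286 for 4 against 4 libraries, was not run. The fit was checked on simulated counts. edgeR 4.0.16 and DESeq2 1.42.0 on recovered reads, other scalings, filters and pseudocounts, blocks, and fits without each library were alternatives. Leaving out mouse 1 was added after seeing the data.

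By the labels' mouse numbers, EGFP+ and tdTomato+ cells of a mouse come from the same animal, so mouse was a block in an alternative fit. Across genes, deviations from the group means correlated at 0.0873 (mice 1 and 2) and 0.0562 (mice 3 and 4). Per-kb values use the union of annotated exons. All 10 S100 genes are named. From each other list, up to 4 genes with the smallest p were named, plus those that passed against most of their list, and for each S100 gene the nearest of 12387 profiles. The genes and lists were chosen with earlier results of these data known. The values of 2 genes of the Schwann cell marker list are not reported here.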

Additional observations from a re-analysis of the deposited data

Results flagged for a closer look

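S100a9 in UV EGFP+ replicate 1 had 20.97 normalized reads (25 reads), while the other 3 EGFP+ libraries had 0, 0.832 and 0.951. Its gap to the nearest library was 0.955 of the range of the 4 EGFP+ libraries, above the 95% critical value of Dixon for 4 libraries. It was the 1 such sample in 20 sets of 4 libraries (10 genes in 2 populations), and chance alone flags about 1 set in 20. The same library was the higher UV EGFP+ replicate for S100a8 (906 against 447) and S100a11 (4232 against 1533). UV EGFP+ replicate 2 had reads for 11186 genes, the fewest of any library.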

How the results depend on the processing

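Of 25 calls of S100 genes between EGFP+ and tdTomato+ cells over the 3 comparisons (all, UVB and mock mice), 0 changed sign under any alternative run and 9 held under every one. Over all mice, S100a1, S100a3, S100a4, S100a6, S100a11 and S100a14 held in all 17. With mouse as a replicate block the S100a9 call in UVB mice was gained (adjusted p = 0.0316) and no other S100 call changed. Replicate numbers of the UV arms belong to different mice (correlations 0.0549 in EGFP+ and 0.0759 in tdTomato+ cells), and that block left the count of S100 genes called with UVB at 0 in both populations.

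Without 1 library, the number of S100 genes called was 4 at the lowest and 8 at the highest in UVB mice, 5 and 9 in mock mice, 0 and 1 with UVB in EGFP+ cells and 0 and 1 in tdTomato+ cells. Without mouse 1 these were 1, 2, 0 and 1, in a fit with fewer libraries. DESeq2 called 1 gene with UVB in each population and edgeR 1 in tdTomato+ cells, S100a1 each time. Of 35 S100 values that were not called, 20 changed sign under at least 1 alternative: 1 each over all mice and in UVB mice, 5 with UVB in EGFP+ cells, 6 in tdTomato+ cells and 7 for the difference of changes. Those whose fold changes are printed here were those of S100a8 over all mice (0.0496 when rescaled, -1.003 to 0.58 without 1 library, 0.57 without mouse 1) and in UVB mice (-0.011 to 2.58 without 1 library), of S100a14 with UVB in EGFP+ cells (0.59 after quantile normalization) and of the S100a1 difference of UVB changes (-0.12 to 0.058 without 1 library, 0.080 without mouse 1). The cause of these was not tested.

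Over all genes, the calls between populations numbered 5217, and 3463 to 6594 without 1 library. In UVB mice they numbered 3240, 1992 with the libraries compared alone, 993 to 4952 without 1 library and 1119 without mouse 1, and in mock mice 3468 and 1398 to 4494 without 1 library. The share of higher calls, 28.1% and 34.8%, was 42.5% and 50.4% after quantile normalization and 38.8% and 49.8% after rescaling. With UVB, 3 genes were called in EGFP+ cells, 120 by edgeR, 361 by DESeq2, 0 to 1604 without 1 library and 818 without mouse 1. In tdTomato+ cells there were 101, 240 by edgeR, 629 by DESeq2, 29 with a pseudocount of 0.1, 183 with the libraries compared alone, 0 to 1772 without 1 library and 2006 without mouse 1. For the difference of changes there was 1, 75 by edgeR, 291 by DESeq2, 0 to 1297 without 1 library and 2064 without mouse 1. At 2 mice per group a UVB change of S100a8, S100a9 or S100b of several log2 units lay within the intervals.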
